A study of Laccaria bicolor with 20 samples.

Results

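In free-living mycelium of the ectomycorrhizal fungus Laccaria bicolor, 148 of 23130 gene models (0.640%) lay highest without ammonium salts, in between on control medium and lowest with surplus ammonium. They were selected on the transcript levels themselves. For each library the raw reads of a gene were scaled to a library total of 1000000, giving CPM values, and averaged per medium. A gene was taken when its control mean was at least 0.3 CPM, when its level without ammonium, on the scale log2((CPM + 1)/(control CPM + 1)), was at least 0.5, and when its level with surplus ammonium on that scale was at most -0.7. A cap of 150 genes was not reached. The fall from the −N medium over control to +N is therefore what chose the genes, and it is described here without a test. The reverse rule, with both thresholds mirrored, found 200 genes.

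Colonies of strain S238N grew on cellophane over modified Melin-Norkrans agar for 2 weeks, spent 1 further week on 1 of 7 media at 25 °C in the dark, and gave polyadenylated RNA for 20 libraries. Control medium (n = 3) held 0.5% glucose, 1.89 mM diammonium phosphate and 3.67 mM KH2PO4. The −N medium (n = 3) lacked the ammonium salts, with phosphate restored by KH2PO4, and the +N medium (n = 3) carried a further 25 mM of an ammonium chloride salt. The −C (n = 3) and +C (n = 3) media held 0.02% and 2% glucose, the −P medium (n = 3) had no phosphate salts, its ammonium being restored as the chloride salt, and the +P medium (n = 2) carried a further 25 mM KH2PO4. As described, all 7 media held 0.5% malt extract and 1% casein hydrolysate, so that organic nitrogen was present in −N as well. The salts also changed chloride and potassium, which cannot be told apart from ammonium and phosphate. Libraries are called replicates in the labels, all from 1 strain, and totalled 9470656 to 33122623 reads. Control replicate 1, −P replicate 3 and all 3 −N replicates have library names ending in the letter i, whose meaning is not given in the sources used here.

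Fungi take up ammonium in preference to many other nitrogen sources, and ammonium that enters the cell is assimilated into glutamine and glutamate. When ammonium is plentiful, genes for the use of other sources are typically held low, a regulation known as nitrogen catabolite repression and carried in yeasts and filamentous fungi by GATA-type transcription factors. In an ectomycorrhizal fungus the same nutrients are traded with a host root, and a group of small secreted proteins, some of them induced in mycorrhiza (MiSSPs), is known for its part in that symbiosis. Gene models are written with the prefix JGI- and their protein number. Annotation was taken from the study's supplement, which covered 4417 of the 23130 gene models, and from RefSeq gene symbols, given to 351. The gene lists used below were drawn from that supplement by annotation words. A function could be given to 61 of the 148 genes from these sources, whereas 87 had none there.

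As a share of each library, the 148 genes held 6.10 to 6.22% of all reads in −N, 3.49 to 3.75% in control and 1.78 to 1.91% in +N. Most of this was 1 gene, JGI-293272, for which no function was given and which was singled out after its values were seen. It measured 40087, 39798 and 41449 CPM in the −N libraries, 26654, 24226 and 25644 CPM in control and 12672, 14023 and 13290.3 CPM in +N. The other 147 genes together held 2.07 to 2.12% of reads in −N, 1.05 to 1.08% in control and 0.505 to 0.514% in +N. Mean control levels ran from 0.751 to 25508 CPM with a median of 23.1 CPM. Per transcript length, in the deposited RPKM values, they ran from 1.63 to 13633 RPKM with a median of 20.0 RPKM.

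The ratio of the −N to the control mean had a median of 1.82 over the 148 genes (range 1.42 to 24.2), and the ratio of the control to the +N mean a median of 2.17 (range 1.64 to 11.8). From −N to +N the levels differed by a median ratio of 4.09, by more than 4-fold in 77 genes, more than 10-fold in 11 and more than 50-fold in 3. The larger of both steps was the one from control to +N in 101 genes and the one from −N to control in 47. In 145 genes all −N libraries lay above all control libraries and all control libraries above all +N libraries. The exceptions were JGI-395214, JGI-680172 and JGI-691716. The group means of these libraries chose the genes, so that this count describes the choice and tests nothing. No share over all genes was computed for it. Just inside the thresholds stood JGI-492092 (-0.7007 in +N) and JGI-708045 (0.5008 in −N) on the log2 scale of the rule. Just outside stood JGI-304495 (-0.6996 in +N) and JGI-691339 (0.4978 in −N). The gene with the lowest control level was JGI-453295 with 0.751 CPM, and no gene was left out by the control minimum alone.

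All −N libraries carry the letter i and so does control replicate 1, so the step from control to −N was also read against that library alone. Its level was under the −N mean in 145 of the 148 genes, and in 120 the difference still reached 0.5 on the log2 scale of the rule. Over all 14725 genes tested, these counts were 8612 and 1784. Both the −N libraries and this control library entered the choice of the 148 genes. Their counts therefore describe the choice and test nothing about the letter i. Control replicate 1 was the highest control library in 69 of the genes and the lowest in 45, counts not made over all genes. Relative to the other 2 controls its median was 0.065 on the same scale, against 0.039 over all genes tested. Where control replicate 1 departed most among the genes described below, this is given with the values.

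**Figure D1:**
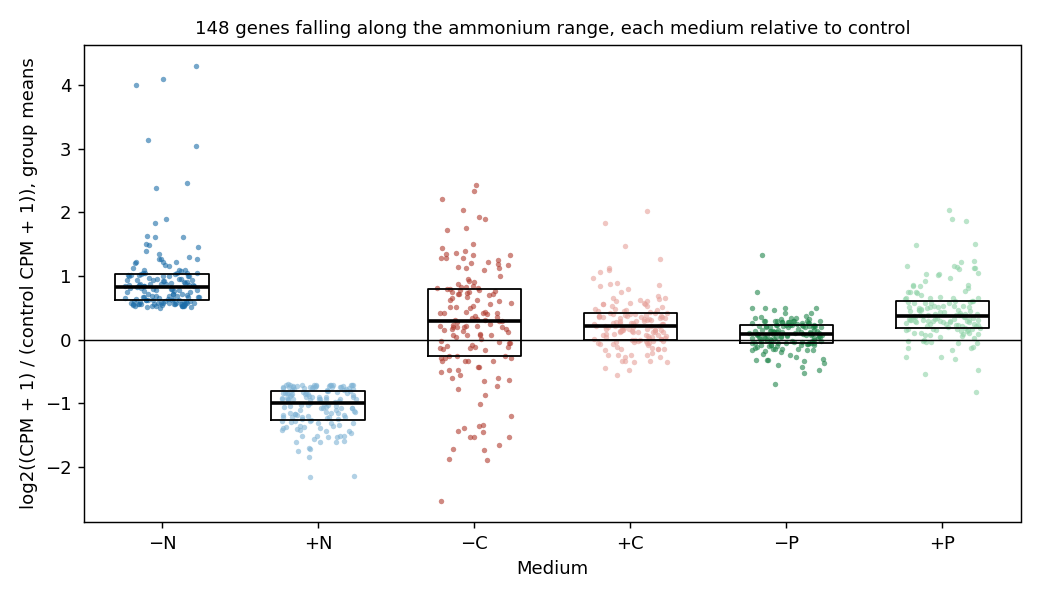
Levels of the 148 genes in each altered medium relative to control, as log2((CPM + 1)/(control CPM + 1)) of group means. Each point is a gene, boxes span the quartiles and the thick line is the median. The positions in −N (all at 0.5 or more) and +N (all at -0.7 or less) follow from the rule, whereas the other media did not enter it; −C spreads the genes to both sides of 0.

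The list of small secreted proteins held 7 of the genes, with ratios of −N to +N from 3.97 to 153. JGI-395214, which the study annotates both as a small secreted protein and as a transcription factor, is not on that list and is described with the transcription factors (ratio 4.11). MISSP16.6 (JGI-315282), named as a mycorrhiza-induced small secreted protein in RefSeq, measured 69.7, 84.2 and 78.4 CPM in −N, 4.01, 3.90 and 2.88 CPM in control and 0.296, 0.785 and 0.436 CPM in +N. Its 3 groups were far apart, 21.5-fold between −N and control and 7.11-fold between control and +N. MISSP23.5 (JGI-325402) measured 97.7, 101 and 89.6 CPM in −N, 4.36, 4.44 and 3.07 CPM in control and 1.56, 1.27 and 0.610 CPM in +N. Here most of the range lay between −N and control (24.2-fold), the largest ratio of that step among the 148 genes.

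The small secreted proteins JGI-565734 and JGI-705125 went from 69.5 and 26.1 CPM in −N to 7.60 and 4.22 CPM in control and 2.61 and 1.30 CPM in +N. JGI-395403, annotated MiSSP13.2, was the most abundant of the 7 in control and changed less, from 76.4, 79.8 and 80.5 CPM in −N over 71.7, 38.2 and 41.5 CPM in control to 18.3, 23.4 and 17.9 CPM in +N. Its control replicate 1 stood apart from the other 2. JGI-393135, a protein with the SCP domain of extracellular defence-related proteins, had 11.4, 6.83 and 2.07 CPM in the same order. The last, JGI-661482, had 67.5, 35.9 and 13.0 CPM.

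Enzymes formed the largest annotated part. JGI-708196, which the study annotates as a cytochrome b5 fatty acid desaturase, an enzyme type that puts double bonds into lipid chains, measured 144, 155 and 146 CPM in −N, 10.6, 7.81 and 6.74 CPM in control and 3.48, 2.60 and 2.27 CPM in +N. JGI-382749, a glycoside hydrolase of family GH17, which holds enzymes acting on beta-1,3-glucans of the fungal wall, went from 365, 374 and 363 CPM over 45.5, 41.0 and 36.3 CPM to 24.9, 20.6 and 22.7 CPM. In both genes the larger step lay between −N and control.

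Among 11 genes given a role in oxidoreduction, the ratio of −N to +N ranged from 3.04 to 53.4 with a median of 4.34. A cytochrome P450 monooxygenase (JGI-185962) had 126, 65.1 and 20.8 CPM in −N, control and +N. A glucose-methanol-choline oxidoreductase of class AA3_2 (JGI-684961) had 63.5, 36.1 and 11.9 CPM, and a dye-decolorizing (DyP-type) peroxidase (JGI-392869) had 19.7, 9.79 and 3.04 CPM. An FAD-binding oxidoreductase (JGI-688984) was the most abundant of the 11 in control, with 304, 254 and 287 CPM against 424, 438 and 419 CPM in −N and 102, 108 and 84.1 CPM in +N.

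Phenylalanine ammonia-lyase (JGI-291120) releases ammonium from phenylalanine and opens the route to cinnamate. Its libraries held 95.9, 106 and 95.8 CPM in −N, 61.2, 41.8 and 37.0 CPM in control and 13.6, 12.3 and 13.7 CPM in +N, a 3.54-fold step on the side of surplus ammonium and a 2.13-fold step on the other. A gene annotated as 4-coumarate-CoA ligase (JGI-612413), the enzyme that activates such acids with coenzyme A, had 112, 38.7 and 19.9 CPM. A MAPEG-type glutathione transferase (JGI-379253) had 498, 337 and 114 CPM, and a glutathione S-transferase (JGI-573457), of an enzyme class that conjugates glutathione to reactive compounds, had 34.6, 21.4 and 11.6 CPM.

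Transport proteins numbered 10. Of these, 4 belonged to the ATP-binding cassette (ABC) superfamily of ATP-driven pumps. JGI-630286 was the most abundant, with 1668, 1598 and 1729.9 CPM in −N, 550.4, 499 and 564 CPM in control and 256, 265 and 272 CPM in +N. JGI-582389 stood at 22.7, 24.2 and 21.2 CPM in −N and 20.8, 11.9 and 11.6 CPM in control, its replicate 1 close to the −N libraries, and at 2.22, 2.11 and 3.40 CPM in +N. JGI-318236 had means of 252, 138 and 41.2 CPM and JGI-251146 of 8.67, 5.52 and 2.99 CPM in this order. The ammonium transporter LbAMT1.2 (JGI-190906) had 583, 605 and 595 CPM in −N, 347, 357 and 391 CPM in control and 170.4, 168 and 181 CPM in +N. In JGI-630286 and LbAMT1.2 the libraries of a medium lay close together and no groups touched. A sodium/solute symporter (JGI-315056) had 99.3, 68.9 and 30.7 CPM.

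Of the genes for transcription factors, JGI-292029 (zinc cluster type) and JGI-395214 (bZIP type, listed by the study also as a small secreted protein) were uneven within groups. JGI-292029 had 64.9, 69.7 and 65.4 CPM in −N, 59.6, 19.2 and 19.2 CPM in control and 16.6, 13.9 and 15.4 CPM in +N. JGI-395214 had 43.5, 42.6 and 40.0 CPM, 46.4, 14.5 and 11.6 CPM and 11.9, 7.76 and 11.0 CPM. In both, control replicate 1 lay close to or within the −N libraries and the other control replicates close to +N, so that their middle position in the range is a mean of unlike libraries. The −P replicates split likewise, with 19.3, 61.6 and 59.0 CPM of JGI-292029 and 10.7, 29.6 and 39.1 CPM of JGI-395214. Of these libraries control replicate 1 and −P replicate 3 carry the letter i, whose part in this was not tested. A basic helix-loop-helix regulator (JGI-687441) was even, with 64.7, 58.4 and 60.1, then 40.7, 45.2 and 36.6 and then 17.9, 14.9 and 16.9 CPM.

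**Figure D2:**
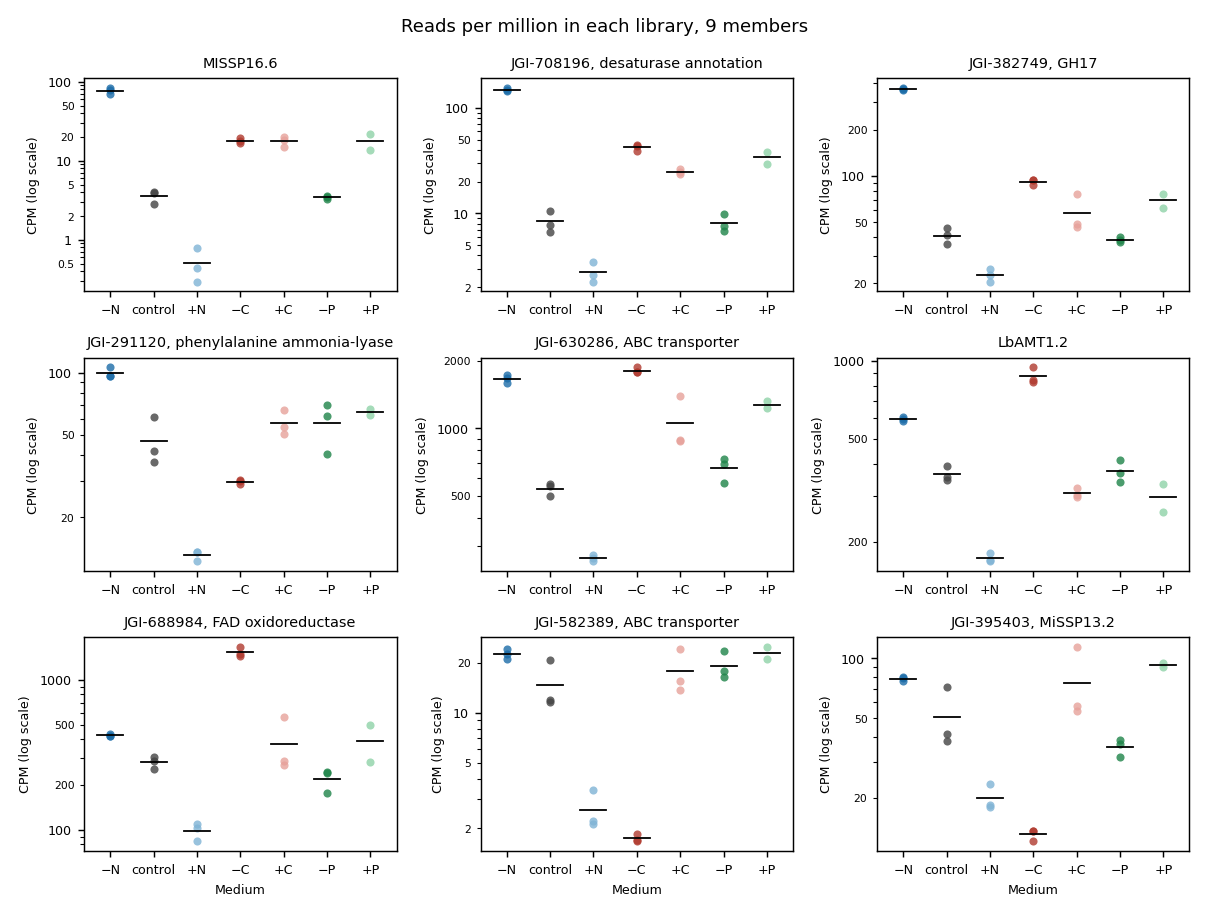
CPM values (reads scaled to a library total of 1000000, log axis) of 9 of the 148 genes in each of the 20 libraries, by medium. Points are libraries and lines are group means. The first 3 columns of each panel follow from the selection. MISSP16.6 lies above its control libraries in −C, +C and +P, the FAD oxidoreductase JGI-688984 is highest in −C, and the ABC transporter JGI-582389 and MiSSP13.2 are lowest there.

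The behaviour of these genes outside the ammonium range was tested between media that had no part in the choice. All 148 genes passed the expression filter, and calls were made at an adjusted p-value under 0.05 over all 14725 genes tested. Between surplus and reduced glucose (+C against −C), 54 of the 148 genes (36.5%) were lower in +C, against 17.4% of all genes tested, and 45 (30.4%) were higher, against 19.3% of all genes. The remaining 49 were not called. The genes were thus split by glucose into both directions, and their median log2 fold change of -0.08 (quartiles -0.60 and 0.57) lay near that of all genes (-0.01, quartiles -0.28 and 0.30), with wider quartiles. Differences over 2-fold were seen in 22 of the lower and 24 of the higher calls. In 97 of the 148 genes, a count not made over all genes, replicate 1 of +C lay above the mean of the other 2. Without it, 63 (42.6%) were lower and 34 (23.0%) higher, against 18.8% and 18.0% of all genes in that fit.

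Genes with more transcript at reduced glucose had −C as the highest of all 7 media in 34 of 54 cases, above even −N. This count follows in part from the call that grouped the genes, and it was not made over all genes. JGI-688984, the FAD-binding oxidoreductase, had 1474, 1445 and 1652 CPM in −C and 565, 272 and 286 CPM in +C. The groups did not overlap, and −C was 4.04-fold higher (log2 fold change -2.01 ± 0.24 (SE), adjusted p = 9.55e-07 for +C against −C). JGI-475478, without annotation, had 1882, 1910.4 and 1810.0 CPM in −C and 629, 387 and 399.6 CPM in +C (log2 fold change -1.98 ± 0.15 (SE), adjusted p = 1.07e-09). LbAMT1.2, which moves ammonium into the cell, had 843, 828 and 945 CPM in −C and 297, 305 and 323 CPM in +C (log2 fold change -1.52 ± 0.11 (SE), adjusted p = 3.01e-10), a 2.87-fold difference and its highest level in any medium.

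The sodium/solute symporter JGI-315056 behaved likewise, with 249.9, 255 and 270.5 CPM against 70.3, 103 and 103 CPM (log2 fold change -1.52 ± 0.10 (SE), adjusted p = 5.51e-11), as did a mitochondrial-type solute carrier (JGI-633395, log2 fold change -1.22 ± 0.10 (SE), adjusted p = 2.26e-09). Of the 10 transport genes 6 were called lower and 2 higher in +C. Of the 11 oxidoreduction genes 7 were called lower in +C and 2 higher. These roles were assigned by hand, and the shares called lower were 36.5% over the 148 genes and 17.4% over all genes. The AA3_2 oxidoreductase JGI-684961 was 2.74-fold higher in −C (log2 fold change -1.45 ± 0.13 (SE), adjusted p = 1.99e-08) and a NADPH dehydrogenase-like flavin enzyme (JGI-705337) 2.06-fold (log2 fold change -1.04 ± 0.11 (SE), adjusted p = 1.59e-07). The desaturase gene JGI-708196 and the GH17 gene JGI-382749 were also higher in −C, with 42.6 against 24.9 CPM (adjusted p = 8.66e-05) and 91.8 against 57.2 CPM (adjusted p = 0.000828).

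Of the 45 genes with less transcript at reduced glucose, 14 had −C as the lowest of all media, below +N. That count too follows in part from the call and was not made over all genes. The ABC transporter JGI-582389 had 1.70, 1.85 and 1.68 CPM in −C and 24.3, 15.5 and 13.6 CPM in +C (log2 fold change 3.37 ± 0.26 (SE), adjusted p = 1.74e-09), a 10.3-fold difference. The other 3 ABC transporters went the opposite way, with -0.78 for JGI-630286, -0.59 for JGI-318236 and -0.54 for JGI-251146 on the log2 scale (adjusted p = 0.000358, 0.00526 and 0.018). The SCP-domain protein JGI-393135 had 1.76, 1.07 and 1.21 CPM in −C and 9.48, 12.4 and 10.9 CPM in +C (log2 fold change 3.02 ± 0.21 (SE), adjusted p = 2.62e-10). MiSSP13.2 (JGI-395403) had 13.6, 12.1 and 13.6 CPM and 114, 57.8 and 54.1 CPM (log2 fold change 2.55 ± 0.26 (SE), adjusted p = 9.12e-08), with +C replicate 1 standing high. Of the 7 small secreted proteins 4 were called higher in +C and 0 lower, against 55 higher among 202 tested genes of the whole list and 19.3% of all genes. In JGI-565734 the call (adjusted p = 0.036) rested on +C replicate 1, with 23.0, 4.69 and 6.23 CPM in +C and 8.02, 5.26 and 5.36 CPM in −C, and without that library its log2 fold change was -0.27.

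The bZIP gene JGI-395214 (1.95 on the log2 scale, adjusted p = 0.000723), an alcohol dehydrogenase (JGI-660224, 2.17, adjusted p = 4.49e-07), the DyP-type peroxidase JGI-392869 (2.39, adjusted p = 1.77e-05) and a RING-type zinc finger protein (JGI-693825, 1.41, adjusted p = 6.88e-06) were all higher in +C. The zinc cluster gene JGI-292029 was called in the same direction (1.06, adjusted p = 0.0161) but lost the call without +C replicate 1 or without −C replicate 1 or 2. The helix-loop-helix gene JGI-687441 went the other way (-0.78, adjusted p = 8.93e-06). Phenylalanine ammonia-lyase had 30.1, 29.1 and 29.9 CPM in −C and 65.8, 54.6 and 50.5 CPM in +C, a 1.91-fold difference (log2 fold change 0.94 ± 0.16 (SE), adjusted p = 8.49e-05). JGI-334206, without annotation, had no read in any −C library and 1.88, 1.54 and 0.950 CPM in +C, which was at least 10.2-fold higher against a floor of 3 reads in each −C library (adjusted p = 3.26e-07).

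Between surplus phosphate and medium without phosphate salts (+P against −P), the genes were moved mainly in 1 direction. In +P 36 of the 148 genes (24.3%) were higher, against 3.93% of all genes tested, whereas 6 (4.05%) were lower, against 5.7% of all genes. The median log2 fold change was 0.20 (quartiles -0.02 and 0.53), against 0.01 over all genes. Without +P replicate 1 the genes called higher numbered 23 (15.5%, against 2.08% of all genes in that fit), and without +P replicate 2 they numbered 29 (19.6%, against 2.65%). The −P replicates were uneven in these genes. In 111 of the 148, a count not made over all genes, replicate 1 lay under the mean of the other 2. Without it, 33 (22.3%) were higher and 9 (6.08%) lower, against 4.16% and 5.80% of all genes, and the lower calls fell to 3 and 2 without −P replicates 2 and 3 and to 2 without +P replicate 2. The share of lower genes was thus near that of all genes.

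The 3 largest of these changes were in genes with a wide ammonium range. JGI-190777, whose counterpart in the mushroom Coprinopsis cinerea has a CsbD-like domain, had 15.9, 8.13 and 7.59 CPM in −P and 66.6 and 67.7 CPM in +P (log2 fold change 2.54 ± 0.20 (SE), adjusted p = 3.57e-08). MISSP16.6 had 3.25, 3.48 and 3.58 CPM in −P and 22.0 and 13.6 CPM in +P, a 4.84-fold difference (log2 fold change 2.28 ± 0.21 (SE), adjusted p = 2.54e-07). The desaturase gene JGI-708196 had 7.59, 6.79 and 9.88 CPM in −P and 38.4 and 29.7 CPM in +P (log2 fold change 1.98 ± 0.17 (SE), adjusted p = 7.03e-08). For these 3 genes the −P libraries lay among or below the control libraries, while both +P libraries lay between control and −N.

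MISSP16.6 and JGI-190777 lay above control at both ends of the glucose range. MISSP16.6 had 17.9, 16.6 and 19.2 CPM in −C and 15.0, 19.8 and 18.1 CPM in +C, all above its highest control library, and the difference between these media was not called (log2 fold change -0.05 ± 0.16 (SE), adjusted p = 0.824). JGI-190777 had 68.7, 70.8 and 71.3 and 61.0, 69.4 and 66.1 CPM (log2 fold change -0.12 ± 0.16 (SE), adjusted p = 0.591). MISSP23.5 was called in neither comparison. It had 7.51 and 7.13 CPM in +P and 3.52, 15.2 and 15.5 CPM in −P, groups that overlapped (adjusted p = 0.335), and 7.12 and 3.93 CPM in −C and +C (adjusted p = 0.113).

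Further genes that were higher in +P were the DyP-type peroxidase JGI-392869 (log2 fold change 1.69 ± 0.36 (SE), adjusted p = 0.00348), JGI-602767 without annotation (log2 fold change 1.38 ± 0.27 (SE), adjusted p = 0.00158), MiSSP13.2 (log2 fold change 1.27 ± 0.27 (SE), adjusted p = 0.00293) and the ABC transporter JGI-630286 (log2 fold change 0.86 ± 0.17 (SE), adjusted p = 0.00174). A major facilitator transporter (JGI-482338) was 2.22-fold higher (adjusted p = 0.00271), whereas a second one (JGI-482364) was 1.63-fold lower (adjusted p = 0.0113), a call lost without −P replicate 2 or 3 or +P replicate 2. The genes that were lower included JGI-701220, without annotation, with 91.8, 115 and 109 CPM in −P and 46.6 and 49.7 CPM in +P (log2 fold change -1.21 ± 0.10 (SE), adjusted p = 4.87e-08), and LbPR_A4 (JGI-327486, log2 fold change -1.17 ± 0.19 (SE), adjusted p = 0.000353). LbAMT1.2 was slightly lower as well, with 340.2, 369.8 and 414 CPM in −P and 334 and 259.6 CPM in +P (log2 fold change -0.42 ± 0.12 (SE), adjusted p = 0.0269). These groups came close to touching, and the call was lost in 4 of 28 alternatives, among them without +P replicate 2 (adjusted p = 0.435).

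The glucose and the phosphate comparison share no library, although the fit pools the spread over all 20. In both, 17 of the 148 genes (11.5%) were called higher with surplus, against 1.93% of all genes tested, and 9 (6.08%) were higher with surplus phosphate and lower with surplus glucose, against 0.516%. Of the genes called higher in +P, 17 of 36 were also higher in +C, a share close to that over all genes tested (284 of 579). Neither comparison called 38 of the 148 genes, JGI-293272 among them, which had 30453, 30418 and 30301 CPM in −C, 31573, 23461 and 24005 CPM in +C, 27725, 23147 and 24857 CPM in −P and 31905 and 30760.5 CPM in +P (adjusted p = 0.26 and 0.462).

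**Figure D3:**
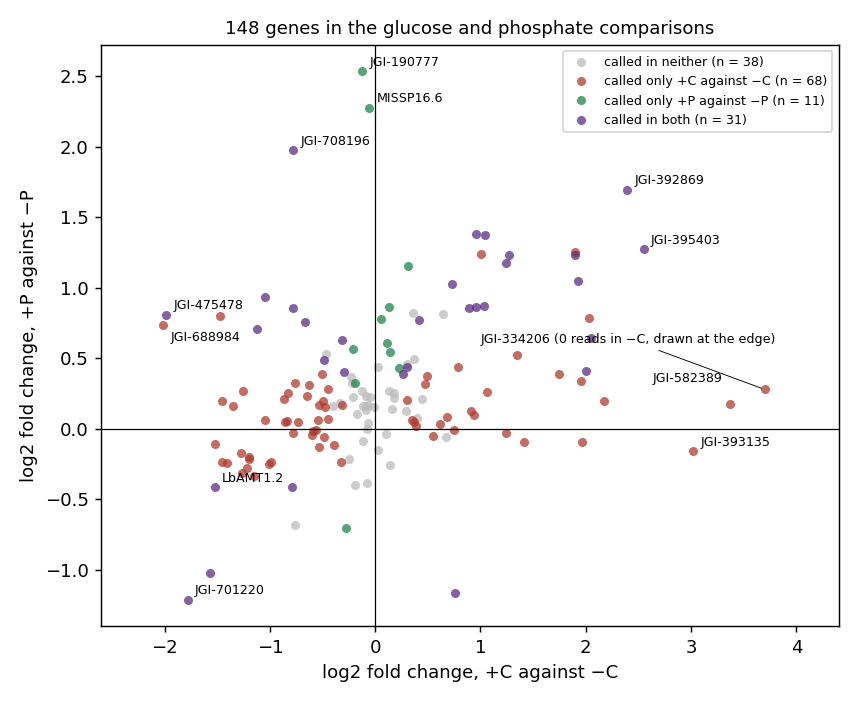
Log2 fold changes of the 148 genes between surplus and reduced glucose (horizontal) and between surplus phosphate and no phosphate salts (vertical). Points are coloured by the comparison in which they were called at an adjusted p-value under 0.05. Calls lie on both sides of 0 along the glucose axis (54 lower, 45 higher) and mostly above 0 along the phosphate axis (36 higher, 6 lower); JGI-334206, fitted further right, is drawn at the edge.

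Against control medium the same genes were compared with each of these 4 media. The control libraries also took part in the choice of the genes, so that these counts are not independent of it. In −C 66 genes were higher and 27 lower (18.2% and 19.4% of all genes), and in +C 26 were higher and 3 lower (4.29% and 4.75% of all genes). In +P 39 were higher and 2 lower (4.23% and 5.6% of all genes). In −P 0 were called in either direction by edgeR (0.0951% and 0.0% of all genes). At an unadjusted edgeR p-value under 0.05, 26 were higher and 1 lower in −P, against 753 and 727 of all genes tested. DESeq2 called 2 higher and 1 lower in −P. Without −P replicate 1, 13 were called higher and 3 lower in −P, and without +C replicate 1, 2 were higher in −P and 13 lower in +C. The 3 lower genes in +C became 1 without control replicate 3 or +C replicate 2 or 3 and 5 without −P replicate 1. The 2 lower genes in +P became 1 to 5 as single libraries were left out. For DESeq2 and the fits without a library, shares over all genes against control are not given here. Those counts therefore show only how far the numbers move. Among the genes called higher than control in both −C and +C were MISSP16.6 (2.26 and 2.21 on the log2 scale, adjusted p = 2.70e-09 and 8.60e-08), JGI-708196 (2.28 and 1.50, adjusted p = 9.29e-11 and 7.84e-07) and JGI-190777 (1.94 and 1.82, adjusted p = 1.38e-08 and 5.14e-07), comparisons that share the control libraries. Of the 148 genes, −N was the highest medium in 101, −C in 34, +P in 12 and −P in 1, and +N was the lowest in 134 and −C in 14. The rule puts −N above control and +N below it, so control could be neither highest nor lowest. The tallies of −N and +N thus follow in part from the choice.

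LbAMT1.2 was the one of 5 listed ammonium transporters that followed the rule, and the others were set beside it. In the −N and +N media 14.7% and 14.1% of all genes tested were higher than in control, and 17.0% and 15.7% were lower. LbAMT1.1a (JGI-188643), a transporter of the same subfamily, had 889, 946 and 1024 CPM in control and was lower both in −N, with 475, 509 and 483 CPM (log2 fold change -1.05 ± 0.10 (SE), adjusted p = 5.91e-08), and in +N, with 101, 98.8 and 106 CPM (log2 fold change -3.21 ± 0.11 (SE), adjusted p = 3.01e-15). Per transcript length it exceeded LbAMT1.2 in control (579 against 189.9 RPKM) and was close to it in −N (297 against 309 RPKM) and lower in +N (62.0 against 90.1 RPKM).

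LbAMT2.3c (JGI-313221) ran opposite to LbAMT1.2, from 1.83, 2.27 and 1.74 CPM in −N over 6.45, 10.2 and 7.06 CPM in control to 56.8, 59.7 and 63.7 CPM in +N. Against control it was lower in −N (log2 fold change -2.11 ± 0.31 (SE), adjusted p = 2.07e-05) and higher in +N (log2 fold change 2.95 ± 0.24 (SE), adjusted p = 2.61e-09). An Rh-like ammonium transporter (JGI-484007) had 0.632, 0.549 and 0.634 CPM, 2.32, 1.48 and 1.37 CPM and 17.8, 12.6 and 18.6 CPM in the same order, and was likewise lower in −N (log2 fold change -1.58 ± 0.44 (SE), adjusted p = 0.00795) and higher in +N (log2 fold change 3.23 ± 0.31 (SE), adjusted p = 4.89e-08). LbAMT2.2 (JGI-331747) was not called in either medium (-0.96 in −N, adjusted p = 0.106, and -0.27 in +N, adjusted p = 0.688). Both transporters that ran opposite to LbAMT1.2 along ammonium were also opposite to it along glucose. They were higher in +C than in −C by 1.92 (adjusted p = 4.31e-06) and 3.26 (adjusted p = 2.46e-06) on the log2 scale. Their +C libraries were uneven, with 6.70, 18.8 and 17.3 CPM and 1.47, 4.82 and 4.54 CPM. Along phosphate they were not opposite to LbAMT1.2, with -0.98 (adjusted p = 0.036) and -1.07 (adjusted p = 0.125) for +P against −P. Of the 5 listed ammonium transporters, 4 were called lower in +P than in −P and 0 higher, against 5.7% and 3.93% of all genes.

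Genes of nitrate assimilation did not follow the rule. The nitrate transporter LbNrt (JGI-254042) had 60.9, 71.5 and 58.7 CPM in control, 31.8, 33.5 and 27.6 CPM in −N and 8.37, 6.46 and 7.67 CPM in +N (-1.13 and -3.08 on the log2 scale, adjusted p = 1.78e-06 and 2.02e-12). The genes annotated with nitrate reductase (JGI-254066) and nitrite reductase (JGI-291348) activity, the enzymes that turn nitrate into ammonium, were likewise highest in control of the 3 media. Against control they measured -1.78 and -1.71 on the log2 scale in −N (adjusted p = 5.75e-08 and 1.11e-06) and -4.02 and -3.15 in +N (adjusted p = 1.32e-12 and 1.96e-10). All 3 were higher in −C than in +C, as LbAMT1.2 was, with log2 fold changes for +C against −C of -3.08 for LbNrt, -2.65 for JGI-254066 and -1.72 for JGI-291348 (adjusted p = 5.39e-13, 4.58e-11 and 4.58e-07). The fourth listed gene (JGI-627887), with a nitrate reductase term, was not called in −N (adjusted p = 0.0501) and rose in +N (0.36, adjusted p = 0.00168). It differed from the others along glucose as well, being higher in +C than in −C (0.40, adjusted p = 0.000585).

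The 148 genes were 0.640% of all gene models, so that few of them could fall in any short list. The lists came from the study's supplement, which covered 4417 of the 23130 gene models, so they may not hold whole families. The listed amino acid and peptide transporters, which carry such products as those of casein, held 0 of the 148. Of 19 amino acid transporters tested, 2 were higher and 6 lower in −N, and 8 were higher and 5 lower in +N. Of 7 peptide transporters 3 were higher and 2 lower in −N, and 1 was higher and 3 lower in +N. The peptide transporter JGI-190652 had 58.9, 18.8 and 12.5 CPM in −N, control and +N, and was singled out after its values were seen. It was called in both steps (1.56 in −N, adjusted p = 7.19e-08, and -0.57 in +N, adjusted p = 0.00905) and missed the threshold of the rule in +N. Peptidases held 1 of the 148 genes in a list of 125 (JGI-601558, of the caspase family), carbohydrate-active enzymes 2 of 125, small secreted proteins 7 of 243, transcription factors 2 of 127 and cytochromes P450 1 of 69, and sugar transporters and protein kinases 0 of 17 and 0 of 132.

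**Figure D4:**
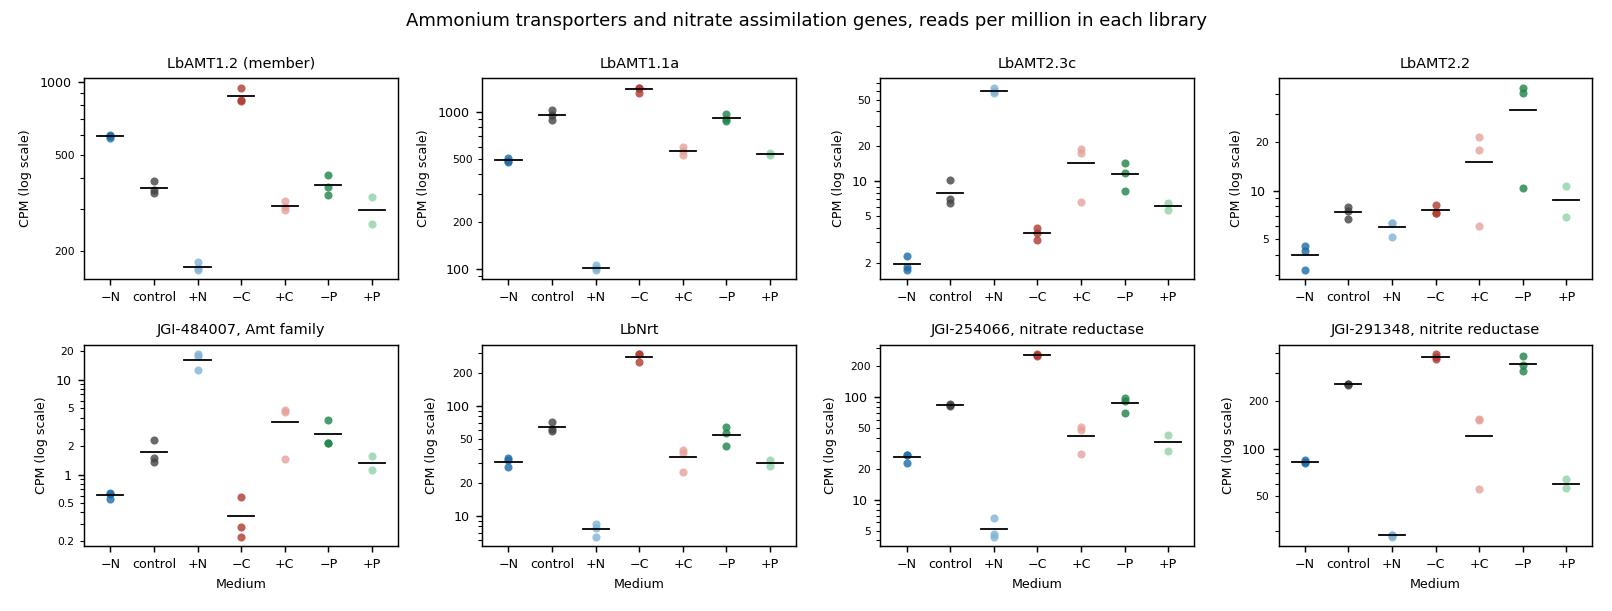
CPM values (reads scaled to a library total of 1000000, log axis) of 5 ammonium transporter genes and 3 genes of nitrate assimilation in each library, by medium, with lines at group means. LbAMT1.2 descends from −N to +N, LbAMT2.3c and JGI-484007 ascend, and LbAMT1.1a and the nitrate genes are highest in control of these 3 media; all 3 nitrate genes, LbAMT1.1a and LbAMT1.2 have their highest mean in −C.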

How the data were processed

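Polyadenylated RNA of 20 mycelial samples was sequenced on a stranded protocol. The authors mapped trimmed reads to the reference transcripts of Laccaria bicolor and deposited, per library, raw read counts and RPKM values (reads scaled to transcript length and library depth) for 23130 gene models. Whether the counts hold uniquely mapped reads and use strand is not given in the sources used here, so that reads of near-identical genes may be shared. Libraries held 9470656 to 33122623 counted reads, and the median count of the 148 genes was 134 to 836 reads per library.

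The CPM values in the text are raw counts scaled to a library total of 1000000. Deposited RPKM values served for the range of control levels and for LbAMT1.1a beside LbAMT1.2. Genes called most abundant were ranked by control CPM, which is not corrected for transcript length. Counts were tested with the quasi-likelihood test of edgeR 4.0.16 (R 4.3.3) in 1 fit over all 20 libraries, with TMM scaling and the filterByExpr filter by group (14725 genes), and p-values were adjusted over all genes tested (Benjamini-Hochberg). Standard errors are the log2 fold change divided by the square root of F. The fit was tested on simulated data. The p-values measure the spread between colonies of 1 strain.

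The 148 genes, the gene lists and the comparisons were chosen with earlier results of these data known, and roles were assigned by hand from the annotation. Genes were named where they ranked among the 12 with the widest range from −N to +N, the most abundant of each list or annotated, the 5 largest changes in each direction of both tested comparisons, the nearest to a threshold, or ammonium transporters and genes of nitrate assimilation. Alternatives were RLE and upper quartile scaling, no filter, at least 10 reads in each library, only the compared groups, a replicate block, a term for the letter i, DESeq2 1.42.0 and each library left out. Sequence features were not analysed here.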

Additional observations from a re-analysis of the deposited data

How the results depend on the processing

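Counts were recomputed under 28 alternatives for the 148 genes and for 8 other ammonium transporter and nitrate assimilation genes. The rule was recomputed under alternatives of its own. Of these 464 recomputed values together, 425 stayed within 1.5 times the count of the main fit or rule. Among the 148 genes, leaving out each library in turn gave 34 to 48 higher and 49 to 63 lower for +C against −C. Over all genes tested, the shares in these fits were 16.49 to 20.07% higher and 14.35 to 18.84% lower. For +P against −P, leaving out each library gave 23 to 44 higher and 2 to 9 lower. Over all genes these shares were 2.08 to 5.00% and 2.96 to 6.87%. Against control the counts were 60 to 68 higher and 24 to 32 lower for −C and 21 to 31 and 1 to 13 for +C. They were 0 to 13 and 0 to 3 for −P and 26 to 48 and 1 to 5 for +P. Shares over all genes are not given for the ranges against control. The rule itself gave 132 to 156 genes.

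When the fit held no other groups than those compared, +P against −P gave 24 higher and 2 lower genes, with 1.84% and 2.24% of all genes called as well, and the counts lower than control were 1 in +C and 1 in +P. Upper quartile scaling gave 5 lower genes in +C and 1 in +P, and RLE scaling gave 1 in +P. A minimum of 10 reads in each library gave 5 lower genes in +C, and no filter gave 2 higher genes in −P and 1 lower gene in +P. A term for the letter i gave 1 higher gene in −P. DESeq2 gave 6 lower genes in +C, 4 lower in +P, and 2 higher and 1 lower in −P. The cause of these shifts was not tested. Of 152 results on single genes, 116 kept their side of the threshold under every alternative, and JGI-565734 changed sign in +C against −C without +C replicate 1 (log2 fold change 1.01, and -0.27 to 1.40 when 1 library is left out).

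The rule on TMM-scaled CPM gave 113 genes, all shared. A pseudocount of 0.5 gave 180 genes with all 148 shared, a pseudocount of 2 gave 119, and group medians gave 145 with 122 shared. With only control replicate 1 it gave 154 genes with 107 shared, and with only the other 2 controls 132 with 116 shared.

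Deviations of same-numbered libraries went in both directions. Over 57 same-numbered pairs the correlation of deviations ran from -0.378 to 0.301, with 12 over 0.1. The replicate numbers were not treated as pairing. Differently numbered pairs were not computed, so whether a number marks a shared origin was not tested. With a replicate block 42 were higher and 54 lower for +C against −C, against 18.64% and 17% of all genes. For +P against −P 28 were higher and 5 lower in that fit, against 3.35% and 4.82% of all genes. Depth limits low genes such as JGI-334206, and +P rests on 2 libraries.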
